A study of Arabidopsis thaliana with 20 samples.

Results

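MYBL2 (AT1G71030, on chromosome 1) and MYB32 (AT4G34990, on chromosome 4) are genes for MYB transcription factors of Arabidopsis, and their transcripts were measured in roots that lack 1, 2 or all 3 of the type-B response regulators ARR1, ARR10 and ARR12, and in roots given cytokinin (CK). The 2 genes were taken by their gene identifiers from the 2072 genes that could be paired with a probe. The array holds 43603 probes. All 2072 genes come from the list that the study had called changed in these mutants on the same arrays. Differences of the 2 genes between mutants and WT are therefore not independent of that list. The untreated groups were arr1/10/12, arr1/10, arr1/12, arr10/12, arr1, arr10, arr12 and wild type (WT, Col-0). The treated groups were WT given 5 μM N6-benzyladenine (a synthetic CK) and WT given mock solution, each for 1 hour. All roots came from seedlings 10 days old, grown under continuous light and cut near the junction of root and hypocotyl, and each group had 2 biological replicates with 1 array each. The mutants carry T-DNA insertions, with the same allele of each gene in every line (arr1-3, arr10-5 and arr12-1), so each gene was represented by 1 allele. The single mutants and arr1/12 were isolated by the study, whereas arr1/10, arr10/12 and arr1/10/12 came from another laboratory, and the source of the line cannot be told apart from these genotypes.

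Phenylpropanoid metabolism starts from phenylalanine and leads to lignin, the polymer of secondary walls, and to flavonoids, which include the flavonols and the anthocyanin pigments. MYB proteins set the output of both branches. MYBL2 is a small MYB protein that represses anthocyanin genes, in part by binding the bHLH partners that MYB activators need. MYB32 is an R2R3-type MYB protein, a close relative of the repressor MYB4, and represses phenylpropanoid genes. Type-B ARRs are the DNA-binding proteins at the end of the CK phosphorelay and mostly activate transcription.

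Each value below is a signal on the log2 scale, which is the background-subtracted brightness of the probe after quantile normalization over the 20 arrays, so a difference of 1 is a 2-fold change. MYBL2 was read from 1 spot and MYB32 from 2 spots, which differed by −0.06 to 0.24 across the 20 arrays. Both probes were well above background on all 20 arrays. In roots as a whole, fewer cells that express a gene and less RNA per cell cannot be told apart. A probe was called changed at a Benjamini-Hochberg adjusted p under 0.05 from limma over the 34034 probes tested, and the standard error (SE) and the 95% confidence interval come from the same fit.

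Across the arrays, 71.8% to 78.8% of probes were well above background, and the median log2 signal before normalization was 8.65 and 8.21 in arr1/10/12 and 8.75 to 9.61 on the other 18 arrays. With 1 exception, the deleted genes were far lower in the lines that lack them, with ARR1 at 7.58 to 8.28, ARR10 at 4.74 to 8.57 and ARR12 at 3.63 to 5.74, against 11.72 to 13.59 in WT. Among these arrays ARR10 was not well above background on arr1/10/12 replicate 2, nor ARR12 on arr1/12 replicate 1 and both arr1/10/12 arrays. On the arrays labelled arr1, ARR1 had a signal of 12.27 and 12.52, against 11.99 and 12.01 in WT, so that loss of ARR1 was not visible there. Of 10 root markers, 3 could be paired, and in WT they lay at 10.60 to 13.55. Of 21 markers of green shoot tissue, LHCA3, a light-harvesting protein, could be paired, and it was at 15.13 and 13.95 in arr1/10/12, against 12.30 and 12.46 in WT. A marker could be paired only if the study had called it changed on these arrays. Unchanged markers are therefore not seen, and the direction of the paired ones is not independent evidence. Replicate 1 of every untreated group lay on 1 slide and replicate 2 on another, whereas each mock and CK array lay on a slide of its own.

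MYBL2 was far higher in the triple mutant than in any other group. Its signal was 10.22 and 10.66 in arr1/10/12, against 5.85 and 6.66 in WT, where it was at its lowest. The 18 arrays outside arr1/10/12 spanned 5.85 to 7.66, so no array of another group came near the triple mutant. The log2 fold change over WT was 4.18 (SE 0.26, 95% interval 3.63 to 4.74, n = 2 against 2), an 18.2-fold rise with an adjusted p of 5.98e-08 from limma. This was the largest MYBL2 change in any comparison with WT. In that comparison 54.4% of all probes were called and 23.2% were called upward, so a call by itself says little, but only 1.43% of the probes tested rose more than MYBL2. Within a slide the difference was 4.37 for replicate 1 and 4.0 for replicate 2. The size depended on the background correction. It was 3.24 with normexp correction and 3.42 in the log2 table of the authors, which has no background subtraction. Before normalization the background-subtracted brightness of the MYBL2 spot was 809 and 855 units in arr1/10/12, against 52 and 72.6 units in WT.

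LHCA3 moved together with MYBL2 in the triple mutant. Its log2 fold change over WT was 2.16 in arr1/10/12 (SE 0.27, adjusted p = 2.89e-05 from limma), while the root markers fell. WOL, a CK receptor, fell by 1.03 (adjusted p = 0.000131), the root hair regulator RSL4 fell by 1.44 (adjusted p = 4.17e-06) and EXPA7, an expansin of root hairs, fell by 1.77 (adjusted p = 6.34e-05). The order of the 2 arrays was reversed between the genes, since LHCA3 was higher on replicate 1 and MYBL2 on replicate 2. The root markers also changed elsewhere. WOL and RSL4 rose after CK (1.40 and 0.79, adjusted p = 0.000151 and 0.00525 from limma), while EXPA7 was not called (0.28). In mock-treated WT, RSL4 (−0.50, adjusted p = 0.0353) and EXPA7 (−1.22, adjusted p = 0.00503) were lower. RSL4 was also lower in arr1/12 (−0.75, adjusted p = 0.0203), and WOL was called in neither. Whether the falls in arr1/10/12 reflect less root tissue or a CK response was not tested. The part of LHCA3 and these root markers in the MYBL2 result was not tested either.

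**Figure D1:**
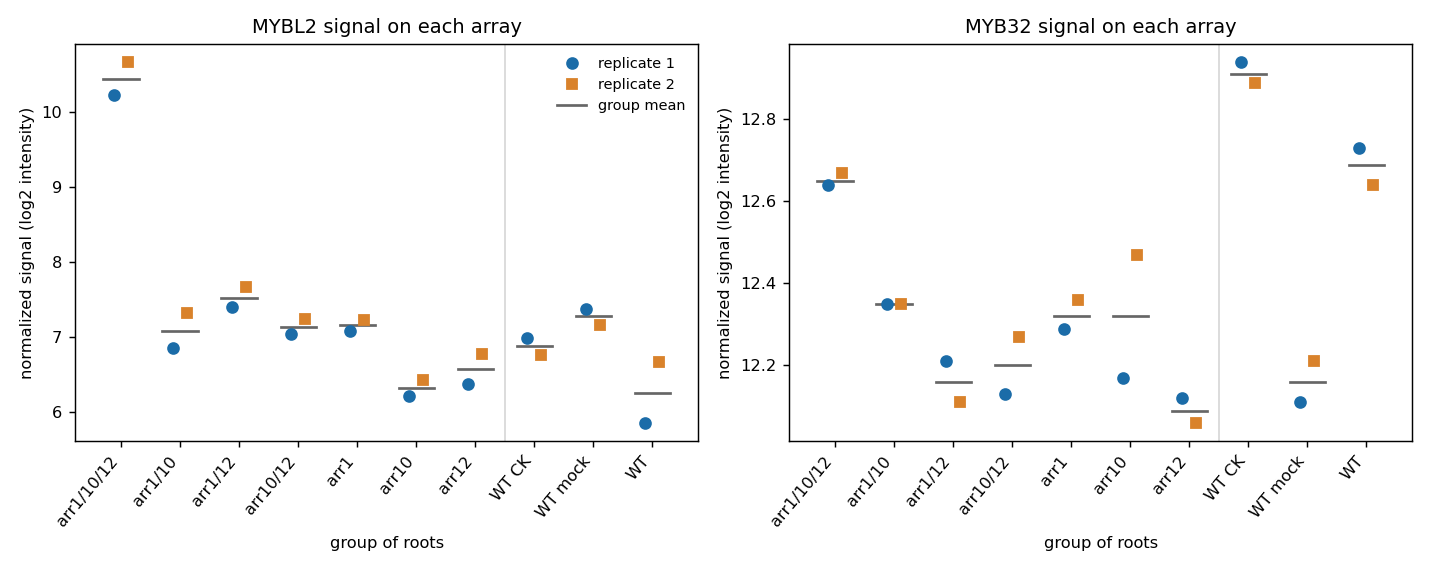
Normalized log2 signal of MYBL2 (left) and MYB32 (right) on each of the 20 arrays, by group, with circles for replicate 1, squares for replicate 2 and a bar for the group mean (the axes do not start at 0, and the grey line parts mutants from WT groups). MYBL2 stands at 10.22 and 10.66 in arr1/10/12 and at 5.85 to 7.66 elsewhere, and MYB32 spans 12.06 to 12.94.

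The double mutants had a smaller rise in MYBL2. In arr1/10 the signal was 6.85 and 7.31, arr1/12 had 7.39 and 7.66, and arr10/12 had 7.03 and 7.23, against 5.85 and 6.66 in WT. All 6 double-mutant arrays were above both WT arrays. Only arr1/12 was called, with a log2 fold change of 1.27 (SE 0.26, 95% interval 0.71 to 1.82, adjusted p = 0.0243 from limma), in a comparison where 2.8% of probes were called and 1.43% upward. This call did not hold without WT replicate 1 (0.86, adjusted p = 0.122), without arr1/12 replicate 1 (1.40, adjusted p = 0.0661) or without arr1/12 replicate 2 (1.13, adjusted p = 0.209). The background correction moved it as well, to 0.73 with normexp (adjusted p = 0.0461) and 0.80 in the authors' table (adjusted p = 0.0805).

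The other double mutants had log2 fold changes of 0.83 in arr1/10 (95% interval 0.27 to 1.38, adjusted p = 0.115 from limma) and 0.88 in arr10/12 (95% interval 0.32 to 1.44, adjusted p = 0.148). Without WT replicate 1 these were 0.42 in arr1/10 and 0.47 in arr10/12, and without WT replicate 2 they were 1.23 and 1.29. The share of probes called there was 0.964% in arr1/10 and 0.306% in arr10/12. With the replicate number as a block, which removes the slide, MYBL2 in arr1/10 passed the threshold (adjusted p = 0.046), and 2.78% of all probes were called upward. The 3 intervals of the double mutants overlapped widely, and no double mutant was tested against another.

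Averaged over the 3 double mutants, MYBL2 was 0.99 above WT (SE 0.21, adjusted p = 0.024 from limma), where 5.86% of probes were called and 3.31% upward. Without WT replicate 1, which had the lowest signal of all arrays, this average was 0.59 (adjusted p = 0.157), and without arr1/12 replicate 2 it was 0.95 (adjusted p = 0.0572). With normexp it was 0.54 (adjusted p = 0.0446). Against the average of the double mutants, arr1/10/12 was higher by 3.19 (SE 0.21, 95% interval 2.74 to 3.65, adjusted p = 6.71e-08). In this comparison 61.7% of probes were called and 25.6% upward, and 2.25% rose more than MYBL2. This step was larger than the step between the average double mutant and WT.

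Among single mutants MYBL2 was not called. The signal was 7.08 and 7.22 on the arrays labelled arr1, arr10 had 6.21 and 6.42, and arr12 had 6.37 and 6.77, against 5.85 and 6.66 in WT. Thus 3 of 6 single-mutant arrays were above both WT arrays, and those of arr10 lay between the WT arrays. The log2 fold change was 0.90 for arr1 (95% interval 0.34 to 1.45, adjusted p = 0.234 from limma), 0.06 for arr10 (95% interval −0.49 to 0.62, adjusted p = 0.981) and 0.31 for arr12 (95% interval −0.24 to 0.87, adjusted p = 0.787). Few probes passed in these comparisons, with 0.0999% called for arr1, 0.0441% for arr10 and 0.126% for arr12. The average of the single mutants was 0.42 above WT (adjusted p = 0.407), in a comparison with 0.423% of probes called. It was 0.02 without WT replicate 1 and 0.83 without WT replicate 2, and the value for arr1 was 0.49 without WT replicate 1. Without the arrays labelled arr1 the double mutants together exceeded the single mutants by 0.80. With all arrays the difference was 0.57 (SE 0.15, adjusted p = 0.0238 from limma), with 17.4% of probes called and 9.4% upward. The call was lost without arr1 replicate 1, arr10 replicate 1, arr10 replicate 2, arr12 replicate 1, arr1/10 replicate 2, arr1/12 replicate 2 or arr10/12 replicate 2 (adjusted p from 0.0511 to 0.0749), while the difference stayed between 0.49 and 0.64 whichever array was left out.

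A 1 hour CK treatment had no called effect on MYBL2. The signal was 6.98 and 6.76 in CK-treated WT, against 7.37 and 7.16 in mock-treated WT, so both CK arrays were below both mock arrays. The log2 fold change was −0.39 (SE 0.26, 95% interval −0.95 to 0.16, adjusted p = 0.472 from limma). In this comparison 6.58% of probes were called, 1206 upward and 1032 downward, or 1006 upward and 1332 downward when arrays were scaled to their 75th percentile. The interval leaves room for a fall to about the size of the double-mutant rise, so the data do not show that CK left MYBL2 as it was.

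MYBL2 was higher in mock-treated than in untreated WT. Mock-treated WT had 7.37 and 7.16, against 5.85 and 6.66 in untreated WT, a log2 fold change of 1.01 (SE 0.26, adjusted p = 0.0177 from limma), where 15.8% of probes were called and 7.18% upward. Without WT replicate 1 it was 0.61 (adjusted p = 0.144), and without WT mock replicate 1 it was 0.91 (adjusted p = 0.121). With normexp it was 0.59 (adjusted p = 0.0435). The mock and untreated arrays lay on different slides, so that slide and treatment cannot be told apart here. This difference was of the size of those seen in arr1/12 and arr1.

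MYBL2 thus had this order of group means, with SD over 2 arrays. The triple mutant had 10.44 ± 0.31, and arr1/12 had 7.52 ± 0.19. Mock-treated WT followed at 7.27 ± 0.15, then arr1 at 7.15 ± 0.10, arr10/12 at 7.13 ± 0.14 and arr1/10 at 7.08 ± 0.33. CK-treated WT had 6.87 ± 0.16, arr12 6.57 ± 0.28, arr10 6.31 ± 0.15 and WT 6.25 ± 0.57. Neighbours in this order did not overlap at 2 places only, between arr1/10/12 and arr1/12 (a gap of 2.92 between means) and between arr1/12 and mock-treated WT (0.25).

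MYB32 had another pattern. Its signal was lower than in WT in all single and double mutants but not in the triple mutant, and it was highest after CK. Its whole range was narrow, with group means that spanned 0.82 on the log2 scale, against 4.18 for MYBL2. All 12 arrays of single and double mutants, from 12.06 to 12.47, were below both WT arrays, at 12.73 and 12.64. The 7 mutant comparisons share these 2 WT arrays, so their directions are not independent. Before normalization the pattern was not the same. The mean brightness of the 2 MYB32 spots was 5600 and 5070 units in WT. It was 5850 and 5690 units on the arrays labelled arr1, 6230 and 4500 in arr1/12 and 4740 and 4820 in arr12. In arr1/10/12, where the median signal of the array was lowest, it was 4510 and 3810 units. Among single and double mutants, only arr12 was thus below both WT arrays before normalization as well. The lower level in the other single and double mutants rests on the normalization.

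Among single mutants, MYB32 was at 12.29 and 12.36 on the arrays labelled arr1, at 12.17 and 12.47 for arr10 and at 12.12 and 12.06 for arr12, against 12.73 and 12.64 in WT. Only arr12 was called, with a log2 fold change of −0.60 (SE 0.10, 95% interval −0.81 to −0.38, adjusted p = 0.048 from limma), where 0.0676% of probes were called downward. The call was at the edge of the threshold. It was lost under 11 of 14 alternatives, among them the removal of any 1 of the 4 arrays (adjusted p from 0.076 to 0.223), while the value stayed between −0.65 and −0.55.

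The other single mutants had values of −0.36 for arr1 (95% interval −0.58 to −0.15, adjusted p = 0.211 from limma) and −0.37 for arr10 (95% interval −0.58 to −0.15, adjusted p = 0.306). The average of the single mutants was −0.44 (SE 0.08, adjusted p = 0.0419), with 0.0852% of probes called downward, and this call was lost under 11 of 17 alternatives. Without the arrays labelled arr1 the average was −0.48 (adjusted p = 0.0847). The call was also lost without WT replicate 1, WT replicate 2, arr1 replicate 1, arr1 replicate 2, arr10 replicate 1 or arr12 replicate 2 (adjusted p from 0.0579 to 0.304, values from −0.49 to −0.39).

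In the double mutant arr1/10 the MYB32 signal was 12.35 on each array, arr1/12 had 12.21 and 12.11, and arr10/12 had 12.13 and 12.27, against 12.73 and 12.64 in WT. The log2 fold change was −0.52 in arr1/12 (SE 0.10, 95% interval −0.74 to −0.31, adjusted p = 0.0193 from limma), with 1.37% of probes called downward. This call was lost when any 1 of the 4 arrays was left out, with an adjusted p from 0.0575 to 0.178 and values from −0.58 to −0.47. In arr1/10 the value was −0.34 (95% interval −0.55 to −0.12, adjusted p = 0.102). In arr10/12 it was −0.48 (95% interval −0.70 to −0.27, adjusted p = 0.0659, and 0.0393 with the replicate block, where 0.555% of probes were called downward). Averaged over the double mutants, MYB32 was 0.45 lower than in WT, a log2 fold change of −0.45 (SE 0.08, adjusted p = 0.0144) with 2.55% of probes called downward. This average was −0.40 without WT replicate 1 (adjusted p = 0.081) and −0.50 without WT replicate 2 (adjusted p = 0.111). Double and single mutants differed by −0.01 (95% interval −0.13 to 0.12, adjusted p = 0.948).

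In the triple mutant MYB32 was near its WT level after normalization, but below both WT arrays before it. The signal was 12.64 and 12.67 in arr1/10/12, against 12.73 and 12.64 in WT, and the groups overlapped. The log2 fold change was −0.03 (SE 0.10, 95% interval −0.25 to 0.18, adjusted p = 0.809 from limma), and 52.7% of all probes were lower. Its sign turned with the scaling, to 0.01 when arrays were scaled to their 75th percentile. Against the average of the double mutants, MYB32 was higher in arr1/10/12 by 0.42 (SE 0.08, 95% interval 0.24 to 0.59, adjusted p = 0.000678), and both triple-mutant arrays were above all 6 double-mutant arrays. Under all 16 alternatives, which do not include the methods' t-test, this difference stayed between 0.38 and 0.48 and was called. All 16 normalize the arrays, however, so they cannot show that the direction is free of that step. Before it the triple mutant had 4510 and 3810 units, on average below every double mutant, whose arrays spanned 4500 to 6230 units. The higher level than in the double mutants thus rests on the normalization. In the normalized comparison with the double mutants 25.6% of probes were called upward, and 23.6% rose more than MYB32.

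**Figure D2:**
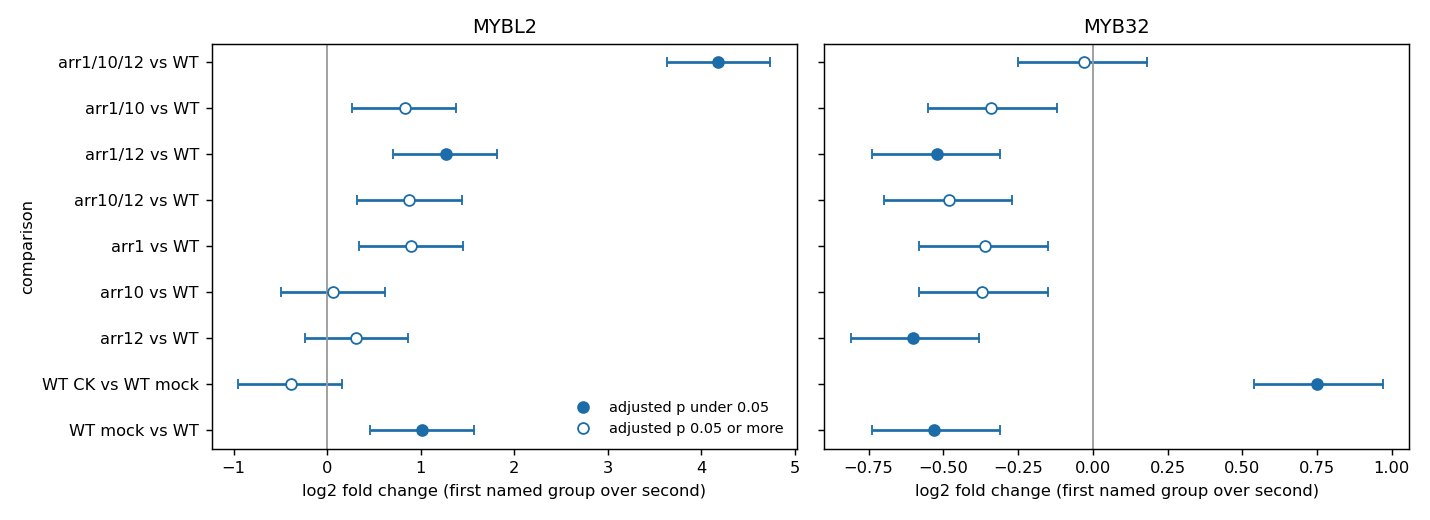
Log2 fold change of MYBL2 (left) and MYB32 (right) in the 9 comparisons of 2 groups, with the first named group over the second, bars for the 95% interval from limma and filled points for an adjusted p under 0.05. The triple mutant is the only mutant with a large rise in MYBL2 (4.18), whereas for MYB32 it is the only mutant whose interval includes 0 (−0.25 to 0.18), and the 2 panels have different scales.

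MYB32 was higher after CK. The signal was 12.94 and 12.89 in CK-treated WT, against 12.11 and 12.21 in mock-treated WT, and both CK arrays were above all 18 other arrays. The log2 fold change was 0.75 (SE 0.10, 95% interval 0.54 to 0.97, adjusted p = 0.000505 from limma), a 1.69-fold rise, where 3.54% of probes were called upward. With any 1 of the 4 arrays left out it was 0.70 to 0.80 and still called (adjusted p from 0.00236 to 0.00917). When only the 4 arrays of this comparison were fitted, the adjusted p was 0.0521. These 4 arrays lay on 4 slides, so slide and treatment cannot be told apart in either comparison of the treated roots.

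MYB32 was lower in mock-treated than in untreated WT. Its signal was 12.11 and 12.21 in mock-treated WT, against 12.73 and 12.64 in untreated WT, a log2 fold change of −0.53 (SE 0.10, 95% interval −0.74 to −0.31, adjusted p = 0.00328 from limma), where 8.59% of probes were called downward. CK-treated WT (12.91 ± 0.03) was thus 0.23 above untreated WT (12.69 ± 0.07), a smaller distance than its 0.75 above mock-treated WT.

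The order of MYB32 means began with CK-treated WT at 12.91 ± 0.03, WT at 12.69 ± 0.07 and arr1/10/12 at 12.65 ± 0.02 (SD, n = 2 each). Then came arr1/10 at 12.35 ± 0.00, arr1 at 12.32 ± 0.05, arr10 at 12.32 ± 0.21 and arr10/12 at 12.20 ± 0.10. The lowest were arr1/12 at 12.16 ± 0.07, mock-treated WT at 12.16 ± 0.07 and arr12 at 12.09 ± 0.05. Neighbours did not overlap between CK-treated WT and WT (a gap of 0.23) and between arr1/10/12 and arr1/10 (0.30), so CK-treated WT was resolved at the top, while WT and arr1/10/12 overlapped below it, as did each neighbouring pair of the lower groups.

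The lines labelled with each combination of the 3 mutations give a step for each ARR in each background. On the arrays labelled arr1 ARR1 was not reduced, so each value that involves them (ARR1 in WT, and ARR10 and ARR12 in arr1) is a step between labels and is not shown to be a loss of ARR1 or a loss in its absence. For MYBL2, losing ARR1 gave a log2 difference of 3.30 in arr10/12, against 0.77 in arr10, 0.96 in arr12 and 0.90 in WT (SE 0.26 each). Losing ARR10 gave 2.92 in arr1/12, against −0.07 in arr1, 0.57 in arr12 and 0.06 in WT. Losing ARR12 gave 3.36 in arr1/10, against 0.37 in arr1, 0.82 in arr10 and 0.31 in WT. The loss of the last of the 3 genes was the large step whichever gene it was, and the steps before it lay between −0.07 and 0.96.

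After normalization the sign of the MYB32 step changed with the background. Losing ARR1 gave 0.45 in arr10/12, against 0.03 in arr10, 0.07 in arr12 and −0.36 in WT (SE 0.10 each). Losing ARR10 gave 0.49 in arr1/12, against 0.02 in arr1, 0.11 in arr12 and −0.37 in WT. Losing ARR12 gave 0.30 in arr1/10, against −0.16 in arr1, −0.12 in arr10 and −0.60 in WT. The log2 difference was above 0 for each last loss and below 0 for the loss of ARR10 or ARR12 in WT, and also for the arrays labelled arr1, where loss of ARR1 is not shown. The steps between them had intervals that included 0. The positive signs of the last losses rest on the normalization, since before it MYB32 was lower on average in arr1/10/12 than in each double mutant. Of the single mutants, arr12 had 4740 and 4820 units before normalization, below both WT arrays at 5600 and 5070. The arrays of arr10, at 6190 and 4950 units, lay on both sides of WT, and those labelled arr1, at 5850 and 5690, lay above it.

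The difference between the last and the first loss was tested as an interaction. For MYBL2 it was 2.41 for ARR1 (SE 0.36, adjusted p = 0.000241 from limma), 2.85 for ARR10 (adjusted p = 7.02e-05) and 3.04 for ARR12 (adjusted p = 4.15e-05). For MYB32 it was 0.81 for ARR1 (SE 0.14, adjusted p = 0.000642), 0.86 for ARR10 (adjusted p = 0.000441) and 0.90 for ARR12 (adjusted p = 0.000302). Interactions were common among all probes, with 41.5%, 42.2% and 43.3% called for ARR1, ARR10 and ARR12, of which 17.3%, 17.6% and 18% of all probes were upward. Only 2.47% to 3.38% of probes had a larger value than MYBL2, against 14.4% to 15.3% for MYB32. The values for ARR1 use the arrays labelled arr1 as the first step and so are not shown to compare 2 losses of ARR1. The 3 interactions share the arr1/10/12 and WT arrays and are not independent of each other. Those of MYB32 rest on the normalization, before which MYB32 was lower on average in arr1/10/12 than in each double mutant.

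**Figure D3:**
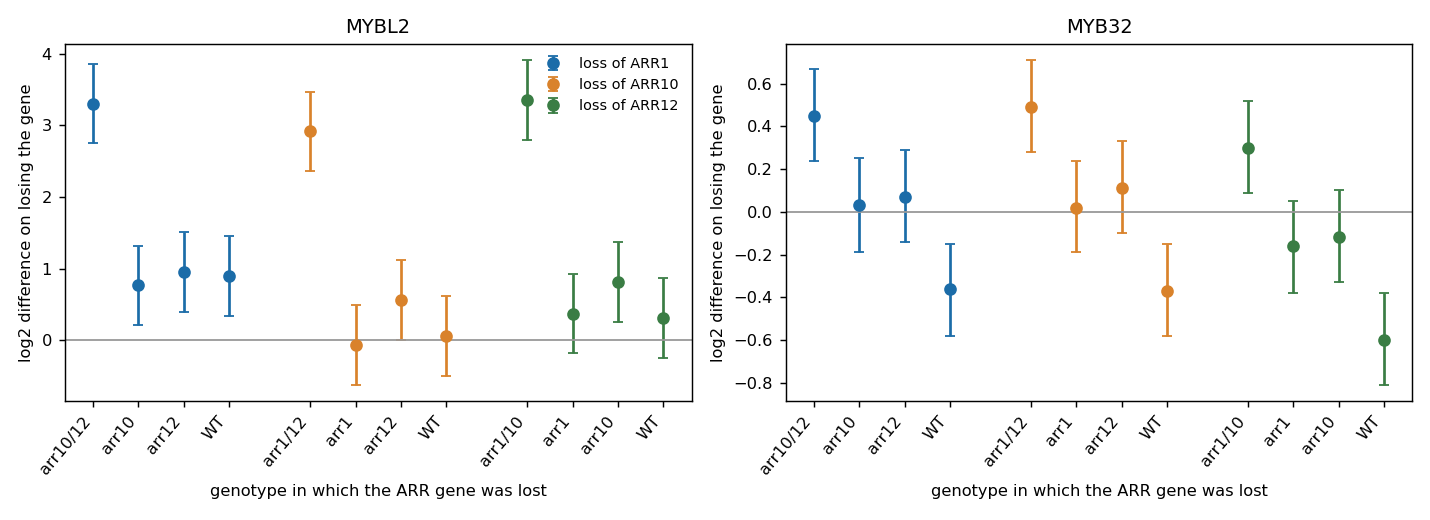
Log2 difference in MYBL2 (left) and MYB32 (right) on losing ARR1, ARR10 or ARR12, by the genotype in which the gene was lost, with points for the difference of group means and bars for the 95% interval from limma. The leftmost point of each colour is the loss of the last ARR gene, at 2.92 to 3.36 for MYBL2 and 0.30 to 0.49 for MYB32, and the rightmost is the step from WT, which for ARR1 is the arrays labelled arr1, where ARR1 was not reduced.

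Other genes of phenylpropanoid metabolism and its MYB regulators were taken from a list of 71 genes, of which 11 could be paired and 10 were tested. None of the 9 genes of the core pathway that leads to both branches could be paired, nor could MYB4. The paired genes come from gene lists that the study had called changed on these arrays, mostly downward, so their direction is not independent evidence. In arr1/10/12, 1 of the 10 genes was called upward and 7 downward, beside 23.2% and 31.1% of all probes. The 10 genes had a median log2 fold change of −0.86, against −0.08 over all probes tested.

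Of the lignin genes, HCT, a hydroxycinnamoyl transferase of monolignol synthesis, had 6.78 and 7.24 in arr1/10/12, against 7.98 and 7.85 in WT, and fell by 0.91 (SE 0.30, adjusted p = 0.0205 from limma). CCR1, the cinnamoyl-CoA reductase that commits precursors to lignin, had 13.14 and 13.16, against 13.93 and 14.01 in WT, and fell by 0.82 (SE 0.08, adjusted p = 5.12e-06). Both triple-mutant arrays were below both WT arrays for each gene.

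Of the 20 activators listed, 4 could be paired, and 3 of these fell. MYB103, a regulator of the secondary wall, was not well above background on either arr1/10/12 array, against 7.05 and 6.94 in WT, and was at least 3.78-fold lower in arr1/10/12 (adjusted p = 7.56e-10 from limma). MYB58, an activator of lignin genes, was not well above background there either, against 7.15 and 7.21 in WT, and was at least 4.29-fold lower (adjusted p = 7.42e-07). These bounds set the triple mutant at the lowest signal counted as well above background on each of its arrays. MYB61, which promotes lignin deposition, was measured in both groups, with 8.58 and 8.97 in arr1/10/12, against 10.12 and 10.26 in WT, and fell by 1.41 (SE 0.13, adjusted p = 1.94e-06).

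MYB111, an activator of flavonol genes, was the one listed gene called upward. It had 8.03 and 6.56 in arr1/10/12, against 4.52 and 5.32 in WT, a log2 fold change of 2.37 (SE 0.54, adjusted p = 0.00254 from limma). Its 2 arrays in the triple mutant were far apart, but both were above both WT arrays. The methods' t-test did not call it even without adjustment. MYB111 was higher on replicate 1 of arr1/10/12, as was the shoot marker LHCA3 (15.13 and 13.95). The part of the rise in LHCA3 and the fall of the root markers in the changes of the listed genes was not tested. Of the 18 flavonoid genes listed, 4 could be paired and 3 tested. AHA10, a proton pump needed for tannin storage in the seed coat, was not well above background in arr1/10/12, against 5.79 and 5.80 in WT, and was at least 1.64-fold lower (adjusted p = 1.13e-05). TT7, a flavonoid hydroxylase, had a log2 fold change of −0.38 (adjusted p = 0.166), and UGT78D2, a flavonoid glucosyltransferase, one of −0.02 (adjusted p = 0.869). TT12, a flavonoid transporter, was too dim to be tested.

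CPL3, a small MYB repressor with a role in epidermal cell fate, was the one repressor of the list besides the 2 genes described here that could be paired. It had 8.63 and 8.53 in arr1/10/12, against 9.26 and 9.46 in WT, and fell by 0.78 (SE 0.17, adjusted p = 0.00155 from limma). In CK-treated WT it had 9.01 and 9.03, against 8.52 and 8.25 in mock-treated WT, a log2 fold change of 0.63 (SE 0.17, adjusted p = 0.039). It was the one listed gene called after CK, beside 3.54% of all probes called upward, and this call was lost with 75th percentile scaling and without WT CK replicate 1, WT CK replicate 2 or WT mock replicate 1. The median of the list after CK was 0.04, against 0.03 over all probes tested.

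In arr1/12, where MYBL2 and MYB32 were both called, 1 of the 10 listed genes was called, beside 2.8% of all probes. UGT78D2 had 14.47 and 14.36 in arr1/12, against 15.04 and 14.98 in WT, and fell by 0.60 (SE 0.11, adjusted p = 0.0161 from limma). In mock-treated WT, 4 of the 10 genes were called downward, beside 8.59% of all probes. UGT78D2 fell by 0.66, MYB103 by 0.48, MYB61 by 1.11 and CPL3 by 0.97 (adjusted p from 0.000112 to 0.0441 from limma). The median of the list there was −0.59, against −0.03 over all probes. This comparison uses the same WT arrays on which most listed genes had been chosen as lower in mutants, so a fall in the list is not independent of that choice.

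**Figure D4:**
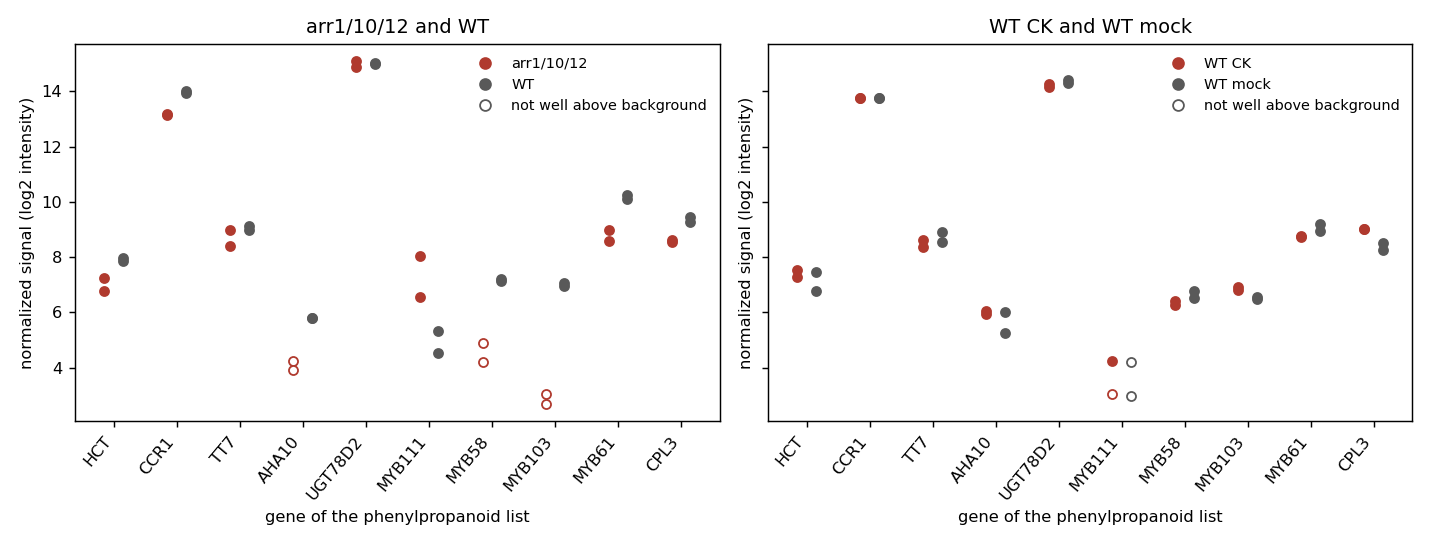
Normalized log2 signal of the 10 phenylpropanoid genes tested, on the 2 arrays of each group, with arr1/10/12 and WT on the left and CK-treated and mock-treated WT on the right. Open points were not well above background, levels compare within a gene only, and MYB111 is the only gene whose arr1/10/12 points (8.03 and 6.56) all lie above its WT points (4.52 and 5.32).

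The genes whose pattern was most like that of each MYB gene were taken by the correlation of the 10 group means, among probes whose means spanned at least 1 on the log2 scale. For MYBL2, 315 of 14357 such probes had r over 0.95. The paired genes most like it were KCS3, a fatty acid elongation enzyme (r = 0.98), AGT, an aminotransferase of photorespiration (r = 0.96), AT2G33830 (r = 0.96), AT3G02480 (r = 0.95) and HOL2, a methyltransferase (r = 0.95). All 5 rose in arr1/10/12, with log2 fold changes of 2.78 to 6.05. These correlations rested largely on that group, and without it r was 0.94 for KCS3 but 0.49 to 0.70 for the others.

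For MYB32, no probe had r over 0.95 and 1 probe had r over 0.9, among 14358 probes. The paired genes most like it were the chromatin remodeller CHR17 (r = 0.87), AT2G34340 (r = 0.86), AFP2, a protein of abscisic acid signaling (r = 0.85), AT2G15690 (r = 0.83) and PMAT2, a malonyltransferase of phenolic glucosides (r = 0.82). AFP2 shared the rise after CK (log2 fold change 1.36, adjusted p = 1.99e-06 from limma) and the fall in arr1/12 (−0.48, adjusted p = 0.0173). PMAT2 also rose after CK (2.87, adjusted p = 0.000126) but, unlike MYB32, rose in arr1/10/12 (1.28, adjusted p = 0.00417). CHR17, AT2G34340 and AT2G15690 were not called in any mutant over WT, after CK or in mock. MYBL2 and MYB32 themselves had r = 0.20 over the 10 group means. The points share slides and the WT arrays, and only paired genes could be named.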

How the data were processed

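RNA of 20 root samples was measured on one-colour (Cy3) Agilent arrays, 1 array a sample. The authors deposited scanner output with a background-subtracted intensity for each spot, and a table of log2 values. That table equals the quantile normalized log2 median pixel intensity without background subtraction, with untreated and treated arrays normalized apart (largest difference 5e-09). Here the intensities were log2 transformed and quantile normalized over 61657 non-control spots. Spots marked as outliers (1 to 386 per array) were dropped before the mean over the spots of each probe was taken.

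Of 43603 probes, the 34034 that were well above background on each array of some group were tested with limma 3.58.1 in R 4.3.3, in 1 fit with 1 coefficient per group, 10 residual and 2.11 prior degrees of freedom. This replaced the combined permutation test of the study. The fit was tested on simulated data. Figures were drawn with matplotlib 3.10.9. Precision is limited by the number of arrays. The p-values measure the spread between biological replicates pooled over the 10 groups, with 2 in each, and not that of the groups compared alone. For MYBL2 in arr1/10/12 over WT the SE was 0.26 in this fit. It was 0.46 by the methods' t-test, which uses the arrays of those 2 groups only.

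The arrays name probes only. A gene was paired with the single spot whose 7 mutant-minus-WT means in the authors' table matched its row of the supplementary gene list of the study within 0.0005, for identity only; its p-values and fold changes were not used otherwise. MYBL2 matched at 3.17e-05 (next spot 0.222 away) and MYB32 at 4.92e-06 (next spot 0.131 away). The array header and the gene table used for symbols (RefSeq, TAIR10.1) name different builds, so no coordinates are given. Genes named beyond these 2 are the paired phenylpropanoid genes called in arr1/10/12 or after CK, other paired members of that list where a count needs them, the paired tissue markers, the deleted genes and the 5 paired genes of highest r. The members and lists were chosen with earlier results of these data known.

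The replicate numbers pair the untreated arrays, which share a slide within a number (r of deviations 0.17 to 0.52 in 28 pairs of groups). Mock-treated and untreated WT had r = 0.30, and CK-treated and mock-treated WT −0.04. Alternatives were 75th percentile scaling, normexp background correction (offset 50, on the median spot intensity), the authors' table, no filter and a stricter filter on dim probes, a replicate block, fits on the groups compared only, array weights, the methods' t-test (for comparisons of 2 groups only) and leaving out each array.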

Additional observations from a re-analysis of the deposited data

Results flagged for a closer look

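For both genes the effect of losing 1 ARR gene differed between the background that lacked the other two and WT, by a test of the difference itself. For ARR1 the step from WT was read on the arrays labelled arr1, where ARR1 was not reduced, so that step is not shown to be a loss of ARR1. For MYBL2 the differences were 2.41 for ARR1, 2.85 for ARR10 and 3.04 for ARR12, and for MYB32 they were 0.81, 0.86 and 0.90. The log2 difference in MYBL2 was 2.92 to 3.36 in the last background, against 0.06 to 0.90 in WT. The log2 difference in MYB32 was 0.30 to 0.49 in the last background, against −0.60 to −0.36 in WT. The 6 differences kept their call under all 16 alternatives, which do not include the methods' t-test, and between 41.5% and 43.3% of all probes were called in the same tests.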

How the results depend on the processing

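Of 542 alternative values, 450 kept their direction and their side of the threshold and 92 did not, and where no cause is given below it was not tested. The MYBL2 rise in arr1/10/12 lost its call only by the methods' t-test after Benjamini-Hochberg adjustment (4.18, adjusted p = 0.0962), which called 1 of 34034 probes there. The difference between arr1/10/12 and the double mutants and the 6 interactions kept their calls under all 16 alternatives. These alternatives do not include the methods' t-test, which was run on comparisons of 2 groups only. All 16 normalize the arrays, and the MYB32 calls among them rest on that step. With the replicate block, MYBL2 in arr1/10 (0.83) and MYB32 in arr10/12 (−0.48) gained a call, and the block changed no other call of the 2 genes.

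With 75th percentile scaling, MYB32 was 0.01 in arr1/10/12 and −0.60 in arr12 (adjusted p = 0.0654), and the listed pathway genes called after CK were 0 upward and 1 downward. With normexp on the median spot intensity (used in place of the mean), MYBL2 in arr10 was 0.00 and MYB32 in arr12 −0.55, and MYBL2 was 0.48 in arr1, 0.45 in arr1/10, 0.44 in arr10/12, 0.20 in single mutants over WT, 0.34 in double over single mutants and −0.24 after CK. In the authors' table, MYBL2 was −0.01 in arr10, 0.80 in arr1/12, 0.60 in the double mutants over WT and 0.37 over the single mutants, and MYB32 was −0.55 in arr12 and −0.42 in the single mutants, the last 5 without a call. Without a filter on dim probes, MYB32 lost its call in arr12 (−0.60) and the single mutants (−0.44), and 0 pathway genes were called upward after CK. With the stricter filter, which tests fewer genes, 0 pathway genes were called upward and 4 downward in arr1/10/12. With array weights, MYB32 lost its call in arr12 (−0.60) and the single mutants (−0.44), and 1 pathway gene was called downward after CK.

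Fits on the groups compared only, with fewer samples, left without a call MYB32 in arr12 (−0.60), arr1/12 (−0.52), the single mutants (−0.44), CK (0.75) and mock (−0.53), and MYBL2 in arr1/12 (1.27), the double mutants (0.99) and mock (1.01), with 0 pathway genes called upward after CK. Of 34034 probes, the fits on the groups compared called 11 in arr12, 25 in arr1/12, 614 after CK and 758 in mock. By the methods' t-test after Benjamini-Hochberg adjustment, MYB32 in arr12 (−0.60), arr1/12 (−0.52), CK (0.75) and mock (−0.53) and MYBL2 in arr1/12 (1.27) and mock (1.01) were not called. Pathway genes called by it were 0 upward and 0 downward in arr1/10/12 and 0 upward after CK. With that adjustment the t-test called 1 of 34034 probes in arr1/10/12, 1 after CK and 0 in arr12, arr1/12 and mock, so a lost call there says little. Unadjusted, that test called MYB32 in arr1 (−0.36), arr1/10 (−0.34) and arr10/12 (−0.48) and 3 pathway genes upward after CK, and did not call MYBL2 in arr1/12 (1.27) or mock (1.01) or any pathway gene upward in arr1/10/12 (0). Of 34034 probes it called 1124 downward in arr1, 2021 in arr1/10 and 1638 in arr10/12, and 3196 upward after CK. Without the arrays labelled arr1, MYB32 was −0.48 in the single mutants and 0.03 in double over single mutants, and MYBL2 was 0.80 in double over single mutants.

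With 1 array left out, where the lone array of a group is assumed to vary like the others, MYBL2 ranged from 0.49 to 1.3 in arr1, 0.42 to 1.23 in arr1/10, 0.47 to 1.29 in arr10/12, 0.02 to 0.83 in single mutants over WT, −0.34 to 0.47 in arr10, −0.09 to 0.72 in arr12, 0.86 to 1.67 in arr1/12, 3.78 to 4.59 in arr1/10/12, 0.61 to 1.42 in mock over untreated WT, 0.59 to 1.40 in double mutants over WT and 0.49 to 0.64 in double over single mutants. MYB32 ranged from −0.65 to −0.55 in arr12, −0.58 to −0.47 in arr1/12, −0.08 to 0.02 in arr1/10/12, −0.49 to −0.39 in single mutants, −0.50 to −0.40 in double mutants and −0.06 to 0.04 in double over single mutants. Pathway genes called upward after CK ranged from 0 to 1. The dim MYBL2 signal in WT limits the size of its fold changes, and 2 arrays per group limit all of them.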
